A study of Homo sapiens with 6 samples.

Results

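ERG and 9 other genes of the ETS transcription factor family (FLI1, ETV6, ELK3, SPI1, ETS2, ELF1, ELF2, ELF4 and GABPA) were followed in F36P cells with and without extra ERG. They were taken by name from a table of 14821 genes, and all 10 were present and passed the filter on low counts. F36P is an established human cell line of acute erythroid leukaemia. In 3 libraries the cells carried the retroviral plasmid MSCV-PIG-AM-ERG (ERG overexpression), and in the other 3 the empty plasmid MSCV-PIG (vector, given as wild type in the labels). In both groups puromycin at 1 µg/ml had been applied for 4 days, and each RNA sample came from 2000000 cells. The labels call the replicates biological but name no separate cultures or transductions, so a p-value here measures only the spread between these libraries. The submitters asked by which route ERG holds back erythroid differentiation.

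ETS proteins share a DNA-binding domain that reads the core GGAA, and differ in the bases they prefer around it, in their partners and in whether they activate or repress. ERG and its closest relative FLI1 act in blood stem cells, megakaryocytes and endothelium, SPI1 (PU.1) drives myeloid and B cell fates, and GABPA activates genes of mitochondria and of basic cell function. In red cell development FLI1 and SPI1 are known to oppose GATA1 and KLF1. Because several ETS factors can occupy the same core, the dose of any factor is usually read against that of the others.

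Total counts ranged from 10257141 to 14803031 per library, so that 1 count was worth 0.0679 to 0.0978 CPM (counts scaled to 1000000 per library). All levels below are CPM after TMM normalisation, which corrects for differences in RNA composition between libraries. Of 7 erythroid marker genes, all were in the table, at a summed level of 1734 to 2825 CPM with ERG and 3571 to 5027 CPM with vector. None of 4 T cell and none of 3 neutrophil markers was in the table. Of 3 monocyte markers LYZ and CSF1R were there, at a summed 65.8 to 88.8 CPM with ERG and 93.0 to 201 CPM with vector. Of 4 B cell markers only CD79A was there, at 22.3 to 41.0 CPM with ERG and 11.6 to 27.3 CPM with vector, and of 4 stromal markers only COL1A1, at 2.04 to 2.40 and 3.58 to 8.71 CPM. Of 4 epithelial markers 3 were there, at a summed 2.82 to 4.32 and 3.03 to 5.37 CPM. Their part in the results was not tested. Of 3 endothelial markers only CDH5 was there, at 0.407 to 1.78 CPM with ERG and up to 0.0880 CPM with vector, while KDR and VWF were not. The libraries also fell into 2 sets that cut across the groups. ERG replicates 1 and 2 with vector replicate 1 are called set A, and ERG replicate 3 with vector replicates 2 and 3 set B. The sets were defined from correlations between these same libraries, so a fit with a term for the set takes that term from the data. ERG replicates 1 and 2 were much closer to each other (chi-square 2.20 per degree of freedom) than any other pair (21.6 to 86.9). They were kept as 2 replicates, and the results that rest on this are given without each of them.

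To show what DNA an ETS factor would meet at these genes, the 250 bases before annotated transcript starts were read from RefSeq (GRCh38.p14) for 8 of the 10 factors, in 18 windows. FLI1 and SPI1 were not used here. The core GGAA (or TTCC, its complement) was present in 16 of the 18 windows, against 92.7% of 35116 windows of all genes, where the median was 3 matches. The longer form CCGGAA (or TTCCGG) was present in 1 of 18, against 14.5% of all windows. The GATA core AGATAA (or TTATCT) was present in 4 of 18 windows, in 3 genes, against 9.17% of all windows. Neighbouring starts of a gene can share bases, so these windows are not all separate. The first 3 sequences below are from genes whose counts were higher with the ERG virus, and capitals mark the ETS core and the GATA core on either strand. The ERG window lies before an internal start used by short ERG transcripts, inside the span of the longer ones. It belongs to the cell's own gene and not to the virus, and the counts do not tell whether transcripts of the cell's own gene rose.
ELK3, chr12:96194125-96194374, plus strand: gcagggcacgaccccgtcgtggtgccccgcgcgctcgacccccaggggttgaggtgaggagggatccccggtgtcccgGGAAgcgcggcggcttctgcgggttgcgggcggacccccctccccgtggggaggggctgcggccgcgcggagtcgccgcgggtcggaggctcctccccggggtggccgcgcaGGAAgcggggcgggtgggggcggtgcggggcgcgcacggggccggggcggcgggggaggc
ETV6, chr12:11649424-11649673, plus strand: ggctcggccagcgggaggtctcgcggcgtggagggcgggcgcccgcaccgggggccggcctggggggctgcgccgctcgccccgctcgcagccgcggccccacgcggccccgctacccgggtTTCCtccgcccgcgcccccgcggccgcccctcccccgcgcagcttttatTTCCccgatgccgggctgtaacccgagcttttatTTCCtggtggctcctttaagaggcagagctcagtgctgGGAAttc
ERG, chr21:38498505-38498754, minus strand: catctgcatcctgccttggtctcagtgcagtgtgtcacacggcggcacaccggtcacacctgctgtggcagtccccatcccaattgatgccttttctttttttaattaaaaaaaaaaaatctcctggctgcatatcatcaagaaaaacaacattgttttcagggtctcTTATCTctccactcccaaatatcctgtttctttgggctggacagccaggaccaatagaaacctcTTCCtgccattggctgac
The single CCGGAA match in the 18 windows of 8 factors, read as TTCCGG and capitalised here, was before a RefSeq start of GABPA, whose level did not pass the test. That window lies inside the span GENCODE gives for GABPA, and all of its 250 bases are in annotated exons.
GABPA, chr21:25734895-25734924, plus strand: cctccgctctacTTCCGGccctggctccgc
The printed ELK3 window held 2 matches to GGAA, the ETV6 window, the only one of that gene, 4, and the ERG window 1 with 1 GATA core. The other ELK3 window held 6 matches to GGAA. The other 3 ERG windows held 2, 4 and 1, and of the 4 ERG windows 2, which overlap, held a GATA core. A match is a description of the letters in the window and does not show that a factor was bound.

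With the ERG virus 4 of the 10 ETS factors were higher by edgeR's quasi-likelihood test (Benjamini-Hochberg adjusted p under 0.05 over 14203 tested genes), namely ERG itself, ELK3, FLI1 and ETV6. None was lower (0 of 10 also by DESeq2), and 6 of the 10 had an unadjusted p under 0.05, against 15.9% of all tested genes. Over all tested genes 2.20% passed, 1.47% as higher and 0.732% as lower. DESeq2 and limma-voom called the same 4 factors, against 7.08% of all genes by DESeq2 (4.20% higher, 2.89% lower) and 1.89% by limma-voom (1.25% higher, 0.648% lower). An edgeR fit with the replicate number as a block also called these 4, against 6.37% of all genes (4.10% higher, 2.27% lower). All 10 log2 fold changes were positive, with a median of 0.36, while over all tested genes the median was -0.01 and 48.9% were positive. The 3 ERG libraries lay above the 3 vector libraries for 6 of the 10 factors and below them for none, against 12.3% and 9.54% of all tested genes (21.9% with no overlap in either direction). ERG was the introduced gene, so its own rise was fixed by the design. Of the 9 factors other than ERG, 3 were called higher and none lower in edgeR. All 9 of these log2 values were positive (median 0.32), and for 5 of the 9 the ERG libraries lay above the vector libraries. The choice of the 10 names was made with earlier results of these data known, so these counts describe the list and are no test of it.

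**Figure D1:**
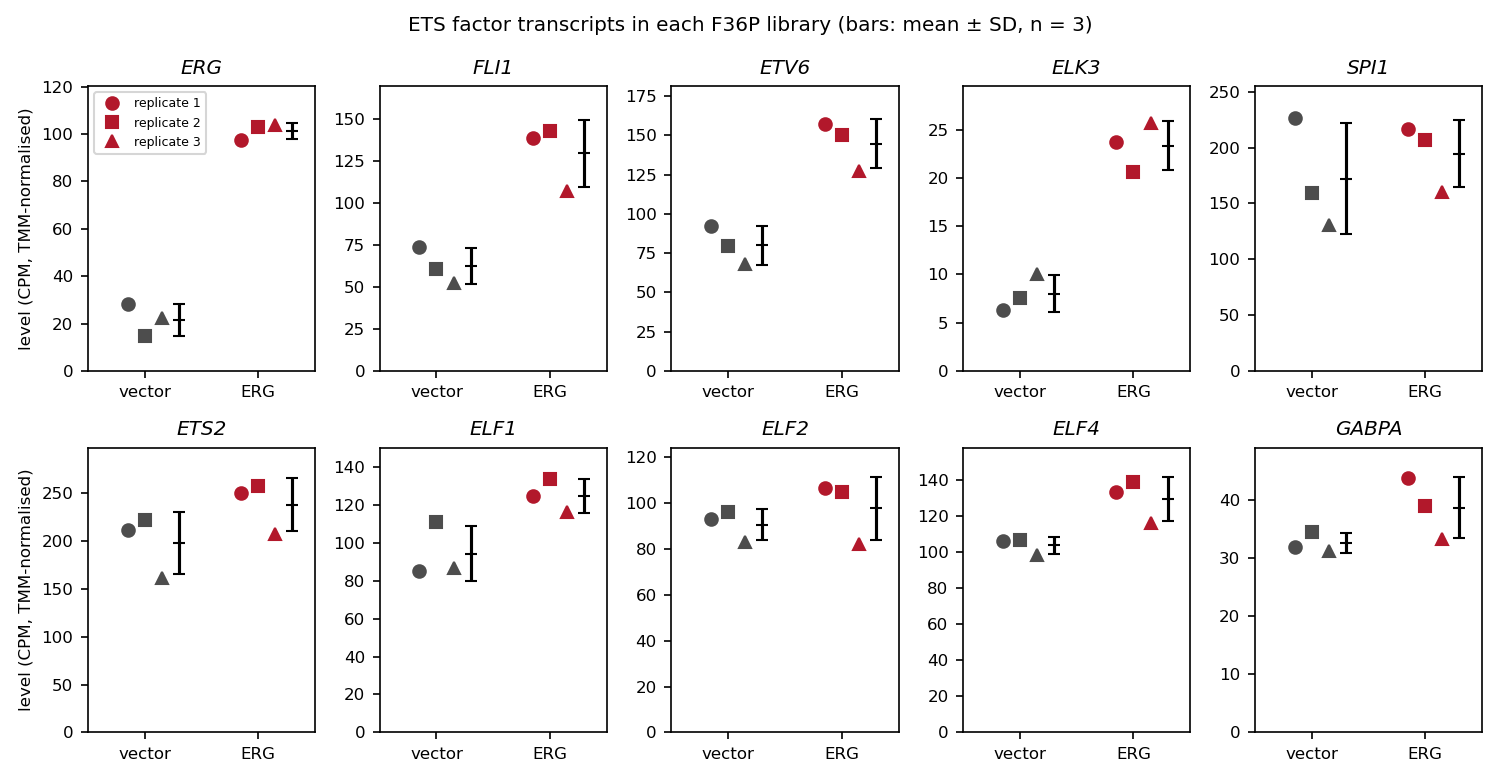
Level of each of the 10 ETS factors (CPM, linear axis from 0) in the vector (grey) and ERG (red) libraries, with symbols for the replicate and a bar for mean ± SD (n = 3). For ERG, FLI1, ETV6, ELK3, ELF1 and ELF4 all red points lie above all grey points, and for SPI1, ETS2, ELF2 and GABPA they overlap.

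ERG stood at 97.4, 103 and 104 CPM in ERG replicates 1, 2 and 3 and at 28.1, 14.6 and 22.4 CPM in vector replicates 1, 2 and 3. The 3 ERG libraries were nearly level, and the vector libraries, whose ERG can only be the cell's own, spread more widely around a low but clear signal. The log2 fold change was 2.23 (SE 0.23, 95% interval 1.68 to 2.77, edgeR adjusted p = 0.011), or 4.68-fold. The call did not hold when ERG replicate 1, ERG replicate 2 or vector replicate 3 was left out (edgeR adjusted p = 0.0716, 0.0729 and 0.0544), with log2 values of 2.25, 2.22 and 2.25. The gene (ENSG00000157554.18) lies on the minus strand of chromosome 21, from 38380027 to 38661780 in GENCODE release 29 (hg38). A count per gene does not separate viral from cellular ERG.

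The dose of ERG was then read against the rest of the family. Of 28 ETS genes in the human genome, 21 were in the table, and their levels were divided by the summed length of their annotated exons to compare genes. On this scale (CPM per kb) ERG was at 12.8, 13.6 and 13.7 with the virus and at 3.70, 1.93 and 2.95 without it. It thereby stood 10th of the 21 genes in the ERG libraries and 17th in the vector libraries. Its share of the summed ETS level was 3.10%, 3.26% and 3.89% in the ERG libraries and 1.08%, 0.588% and 1.06% in the vector libraries. The mean share was 3.41 ± 0.417% against 0.908 ± 0.277% (SD, n = 3 each; exact permutation test, two-sided, p = 0.1, the smallest this design allows). These ranks and shares depend on the length given to ERG. The sources used here do not give the length of the introduced ERG transcript, and a viral copy with short untranslated ends would be understated by division by the full exon length of 7588 bases. With every family gene divided by its own coding length (1458 bases for ERG), ERG stood 8th with the virus and 15th without, with a share of 5.44 ± 0.714% against 1.55 ± 0.459% (SD, n = 3). With ERG alone divided by its coding length and the other genes by exon length, a setting chosen after seeing the data, ERG stood 2nd with the virus and its share was 15.5 ± 1.65% (SD, n = 3). In the vector libraries, which hold no viral copy, that setting gave 7th place and 4.54 ± 1.35%. The share and the place of ERG are therefore not fixed by these data. Its difference between the groups had the same direction under each length. Under each setting the same length was used for a gene in all 6 libraries, so this likeness of direction is no separate support. The ERG libraries hold viral ERG besides the cell's own, possibly of another length. A single length for ERG may therefore misstate the difference in share and place between the groups.

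The order of the other genes was read by exon length, and it too depends on the length used. By coding length SPI1 and ETS2 stayed 1st and 2nd in both groups. In the ERG libraries ETV6, FLI1, ETS1 and ERF stood 3rd, 4th, 5th and 6th by coding length, against 7th, 9th, 8th and 3rd by exon length. SPI1 had the highest level per length in both groups, 94.0 ± 14.5 CPM per kb with ERG and 83.3 ± 23.8 with vector (SD, n = 3), above the range of every other ETS gene. ETS2 came next at 51.8 ± 5.95 and 43.1 ± 7.09 CPM per kb. In the vector libraries its range overlapped that of ERF, an ETS repressor and the next in order, while in the ERG libraries it did not. Lower down, ELF4 and ELF1 overlapped each other in both groups, ELK1 overlapped ELF1 in the ERG libraries, and with ERG the ranges of ETV6, ETS1, FLI1 and ERG overlapped from each to the next. In the vector libraries ERG lay next to ELK3 by exon length, at 2.86 ± 0.890 and 1.72 ± 0.411 CPM per kb, with overlapping ranges. On that scale its mean was below that of every detected family gene except ELK3, SPDEF, SPIB and FEV. On the exon length scale ERG was at 0.757, 0.776 and 1.05 times the level of FLI1 in the ERG libraries and at 0.409, 0.261 and 0.460 times in the vector libraries. All 3 ERG libraries were above all 3 vector libraries in this ratio (exact permutation test of the ratio, two-sided, p = 0.1, the smallest possible). Whether ERG exceeded FLI1 in the ERG libraries depended on the length used. In ERG replicate 3 the ratio was 1.05 by exon length, 0.973 in CPM and 0.905 with both genes at coding length, and in the other 2 ERG libraries it was under 1 on these 3 scales. With ERG alone at its coding length it was 3.94, 4.04 and 5.45. Within set A the log2 ratio of ERG to FLI1 differed by 0.91 between the groups and within set B by 1.60.

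**Figure D2:**
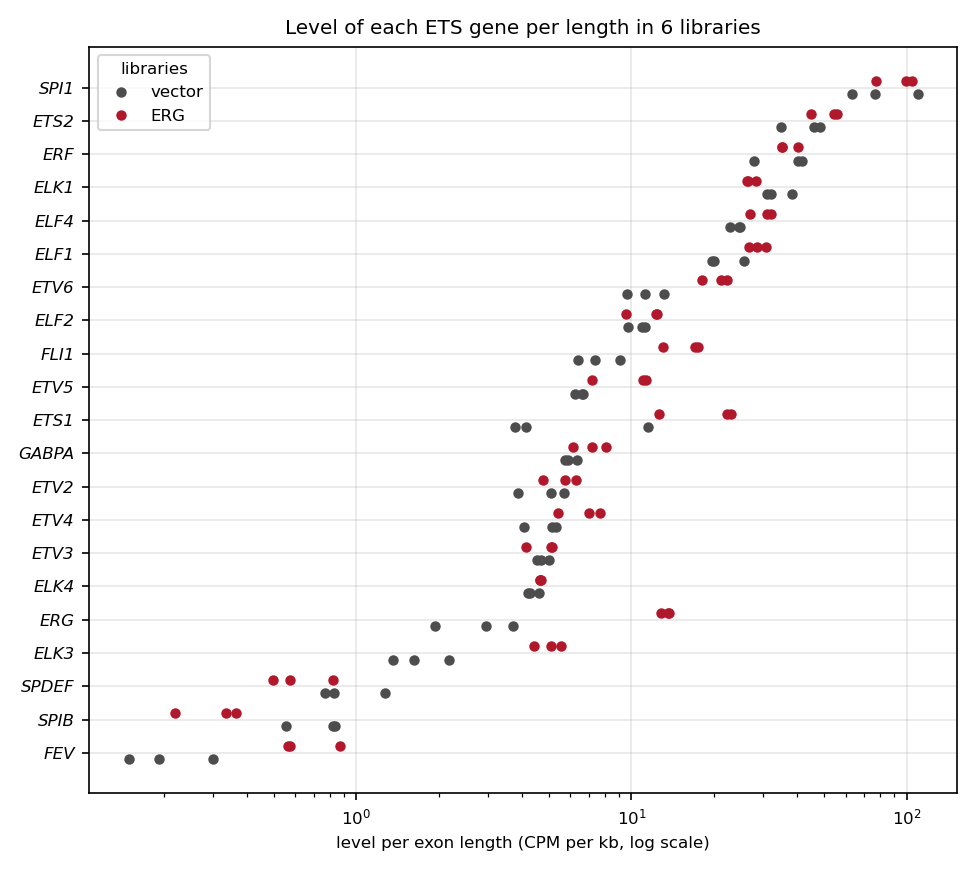
Level of each of the 21 ETS genes per exon length (CPM per kb, log axis) in the 3 vector (grey) and 3 ERG (red) libraries, ordered by the vector mean. SPI1 is at the top in both groups, and ERG moves from 17th place (2.86 CPM per kb) to the middle of the family (13.4 CPM per kb).

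The summed level of the family without ERG itself was 1748, 1766 and 1459 CPM with ERG and 1365, 1331 and 1144 CPM with vector. All ERG libraries were above all vector libraries (1658 ± 172 against 1280 ± 119 CPM, SD, n = 3 each; exact permutation test, p = 0.1, the smallest possible). Per exon length the sums without ERG overlapped, at 402, 403 and 338 against 339, 326 and 276 CPM per kb (exact permutation test, p = 0.2).

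FLI1, the nearest relative of ERG and like it an activator in megakaryocytes, was at 139, 143 and 107 CPM with ERG and 73.9, 60.4 and 52.4 CPM with vector. The groups did not overlap, and in each group the set A libraries were the higher ones. The log2 fold change was 1.05 (SE 0.18, 95% interval 0.63 to 1.48, edgeR adjusted p = 0.0341), or 2.08-fold. Within the sets the differences of log2 CPM were nearly equal, 0.93 in set A and 0.92 in set B. FLI1 (ENSG00000151702.16) lies on the plus strand of chromosome 11, from 128686535 to 128813267. Its exons overlap those of an unnamed gene on the opposite strand over 2.04% of their length.

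ETV6 (TEL), a repressor of the family needed by adult blood stem cells and platelets, was at 157, 150 and 127 CPM with ERG and 92.6, 79.4 and 68.1 CPM with vector. Every ERG library was above every vector library, by a smaller step than for FLI1. The log2 fold change was 0.86 (SE 0.16, 95% interval 0.48 to 1.23, edgeR adjusted p = 0.0433), or 1.81-fold, and within the sets 0.73 and 0.79. With upper quartile scaling the edgeR adjusted p was 0.0504, just past the threshold. ETV6 (ENSG00000139083.10) lies on the plus strand of chromosome 12, from 11649854 to 11895402.

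ELK3 (NET), of the ternary complex factors that bind beside the serum response factor SRF and that represses until phosphorylated by MAP kinases, was at 23.7, 20.6 and 25.7 CPM with ERG. With vector it was at 6.34, 7.54 and 10.1 CPM. Unlike FLI1 and ETV6, ELK3 was lower in set A than in set B in both groups. The log2 fold change was 1.55 (SE 0.22, 95% interval 1.04 to 2.06, edgeR adjusted p = 0.0206), or 2.92-fold, with differences of 1.78 within set A and 1.54 within set B. Per exon length ELK3 remained among the lowest of the detected family, 18th with vector and 16th with ERG. ELK3 (ENSG00000111145.7) lies on the plus strand of chromosome 12, from 96194382 to 96269835, and 4.50% of its exon length overlaps an unnamed gene on the opposite strand.

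The calls of FLI1, ETV6 and ELK3, like that of ERG, depended on the libraries. Without ERG replicate 1 or ERG replicate 2 none of the 10 factors passed in edgeR (0 of 10 each, with 4 whose unadjusted p was under 0.05), and neither did any other of the 14203 genes. The whole table held 19 calls without vector replicate 2 and 51 without vector replicate 3. Leaving out vector replicate 2, only ERG passed and without vector replicate 3 only ELK3 did, while without ERG replicate 3 or vector replicate 1 all 4 passed. Over these 6 fits the log2 values lay between 0.95 and 1.20 for FLI1, 0.75 and 0.97 for ETV6 and 1.41 and 1.75 for ELK3.

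ELF1 and ELF4, activators that are common in blood cells, were higher in each ERG library than in any vector library but did not pass the test. ELF1 was at 124, 134 and 116 CPM with ERG and 85.2, 111 and 86.6 CPM with vector (log2 0.41, 95% interval 0.06 to 0.75, edgeR adjusted p = 0.242). ELF4 (MEF) was at 134, 139 and 116 CPM with ERG and 106, 107 and 98.2 CPM with vector (log2 0.32, 95% interval 0.02 to 0.62, edgeR adjusted p = 0.278). These intervals are for single genes and are not adjusted for the number of genes tested. ELF2 was at 106, 105 and 82.0 CPM with ERG and 93.1, 96.0 and 82.9 CPM with vector, so that ERG replicate 3 was the lowest of all 6 libraries (log2 0.11, 95% interval -0.23 to 0.45). Within set A the difference for ELF2 was 0.18 and within set B -0.12. Some exons of ELF1 overlap those of WBP4 on the opposite strand, over 3.85% of the ELF1 exon length, and the sources used here do not say whether the counting used strand.

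SPI1, ETS2 and GABPA overlapped between the groups. SPI1 (PU.1), whose high level blocks red cell maturation in the mouse, was at 216, 207 and 160 CPM with ERG and 227, 159 and 131 CPM with vector. The highest library was a vector library, and set A was above set B in both groups, by 0.40 on the log2 scale with ERG and 0.65 with vector. The log2 difference between the groups was 0.17, with a 95% interval from -0.36 to 0.70 (edgeR adjusted p = 0.736). ETS2, a MAP kinase-responsive activator next to ERG on chromosome 21 (38805307 to 38824955), was at 249, 257 and 207 CPM with ERG and 211, 222 and 161 CPM with vector. Its log2 difference was 0.27 (95% interval -0.13 to 0.66, edgeR adjusted p = 0.497). GABPA, the DNA-binding subunit of GABP, was at 43.8, 39.0 and 33.3 CPM with ERG and 32.0, 34.5 and 31.2 CPM with vector (log2 0.25, 95% interval -0.10 to 0.60, edgeR adjusted p = 0.467). For each of these 3 genes a change as large as that of ETV6 lay outside the interval, since the upper bounds were 0.70, 0.66 and 0.60. GABPA shares 7.61% of its exon length with ATP5PF on the opposite strand.

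**Figure D3:**
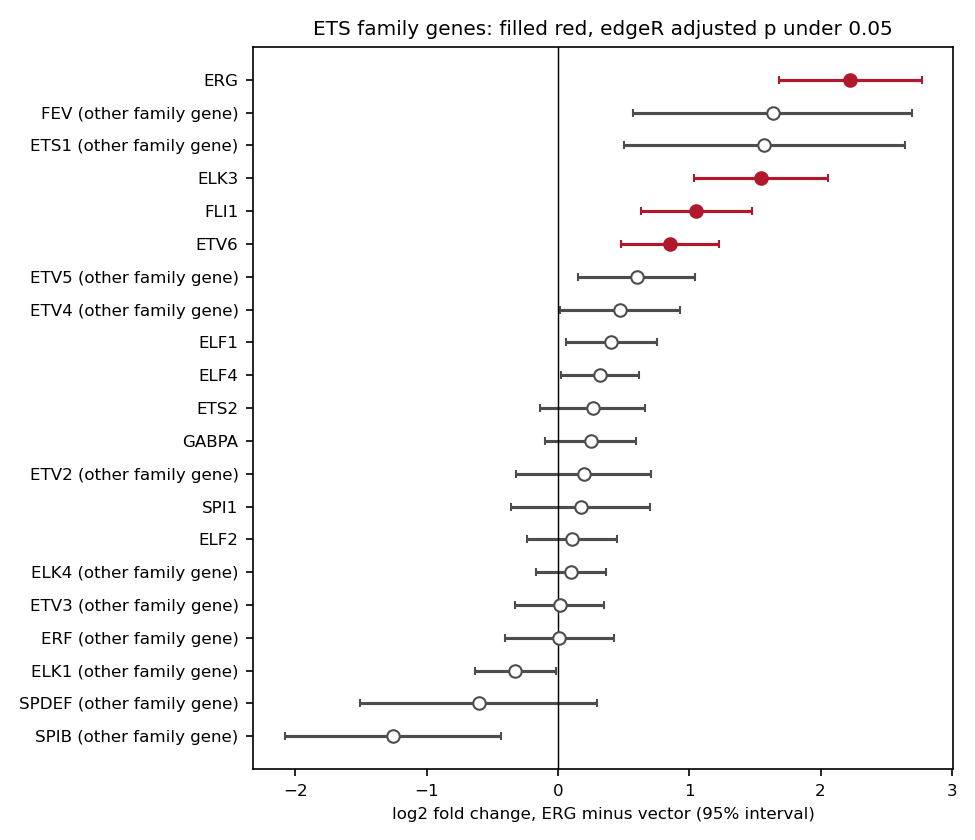
Log2 fold change of ERG against vector with its 95% interval for the 21 tested ETS genes, filled red where the edgeR adjusted p was under 0.05. ERG, ELK3, FLI1 and ETV6 are filled, and 18 of the 21 values are above 0, among them FEV, which met the filter only through the ERG libraries.

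Of the 18 family genes beyond these 10, 11 were in the table and all 11 were tested. None passed in edgeR (0 of 11, against 2.20% of all tested genes). At an unadjusted p under 0.05 there were 6 (15.9% of all genes), with 1 call by DESeq2 (7.08%) and 0 by limma-voom (1.89%). Of the 11 log2 values 8 were positive (median 0.10), against 48.9% of all genes. The groups did not overlap for 7 of the 11 (5 higher, 2 lower), against 21.9% of all genes (12.3% higher, 9.54% lower). FEV, which met the filter only through the ERG libraries, is among these 8 and these 5. ELF3, ELF5, EHF, ETV1, ETV3L, ETV7 and SPIC had no row in the table and were not analysed here. ETS1, a factor of lymphocytes and endothelium, was at 159, 164 and 89.9 CPM with ERG and 82.2, 29.6 and 27.0 CPM with vector. It followed both the virus and the library sets, since set A exceeded set B by 1.54 on the log2 scale in vector libraries and by 0.84 in ERG libraries. Its log2 fold change was 1.57 (95% interval 0.50 to 2.64, edgeR adjusted p = 0.145). ETS1 was the DESeq2 call (adjusted p = 0.0106), and it also passed in edgeR without vector replicate 1 (log2 2.28, adjusted p = 0.0205) and with a term for the library set (1.31, adjusted p = 4.2e-04).

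ETV5 and ETV4, of the PEA3 group that acts downstream of receptor kinases, were at 57.1 ± 13.5 against 37.7 ± 1.22 CPM and at 24.2 ± 4.21 against 17.5 ± 2.47 CPM (SD, n = 3). Neither log2 value, 0.60 or 0.47, passed the test (edgeR adjusted p = 0.182 for ETV5 and 0.301 for ETV4). Without ERG replicate 3, ETV5 passed (log2 0.79, edgeR adjusted p = 0.0307). ELK1, a ternary complex factor like ELK3, had the opposite sign, at 91.9 ± 3.64 CPM with ERG against 115 ± 13.5 with vector (log2 -0.33, edgeR adjusted p = 0.285), and ELK4 was at 56.7 ± 0.442 against 53.0 ± 2.44 CPM. ERF and ETV3, both repressors, had log2 values of 0.01 and 0.01 whose sign changed with the scaling or the libraries used. ETV2, a factor of early blood and vessel precursors, was at 12.0 ± 1.66 against 10.5 ± 1.98 CPM. SPIB, FEV and SPDEF were below 4 CPM in every library. SPIB, a relative of SPI1, had lower values in every ERG library (1.31 ± 0.330 against 3.16 ± 0.679 CPM, edgeR adjusted p = 0.134). FEV, of the ERG subfamily, had higher ones (1.37 ± 0.357 against 0.437 ± 0.161 CPM, edgeR adjusted p = 0.131). FEV met the filter of 1 CPM in 3 libraries only through the ERG libraries, so its direction was fixed by that filter.

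The difference between the groups was also read within each library set. In both sets 8 of the 10 factors (7 of the 9 other than ERG) were higher with ERG, against 35.0% of all tested genes. The exceptions were SPI1 (-0.10 in set A, 0.15 in set B) and ELF2. For ERG itself the step was 1.83 in set A and 2.51 in set B, since vector replicate 1 had the highest ERG level of the vector libraries. ELF1, ELF4, ETS2 and GABPA all had larger differences in set A than in set B, with GABPA at 0.37 and 0.02. An interaction term in edgeR found no gene whose difference varied between the sets (0 of 14203, with 10.2% at an unadjusted p under 0.05), and among the 10 factors the lowest unadjusted p was that of ERG, 0.0629 (adjusted 0.515). With a single vector library in set A and a single ERG library in set B, that term rests on very few samples. With a term for the set the same 4 factors passed, with log2 values of 2.17 for ERG, 0.92 for FLI1, 0.76 for ETV6 and 1.67 for ELK3. That was 4 of 10 higher (3 of the 9 other than ERG) and 0 lower, against 13.2% of all genes (7.20% higher and 5.96% lower). Since the sets were defined from these same libraries, the p-values of that fit are not independent of the data.

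**Figure D4:**
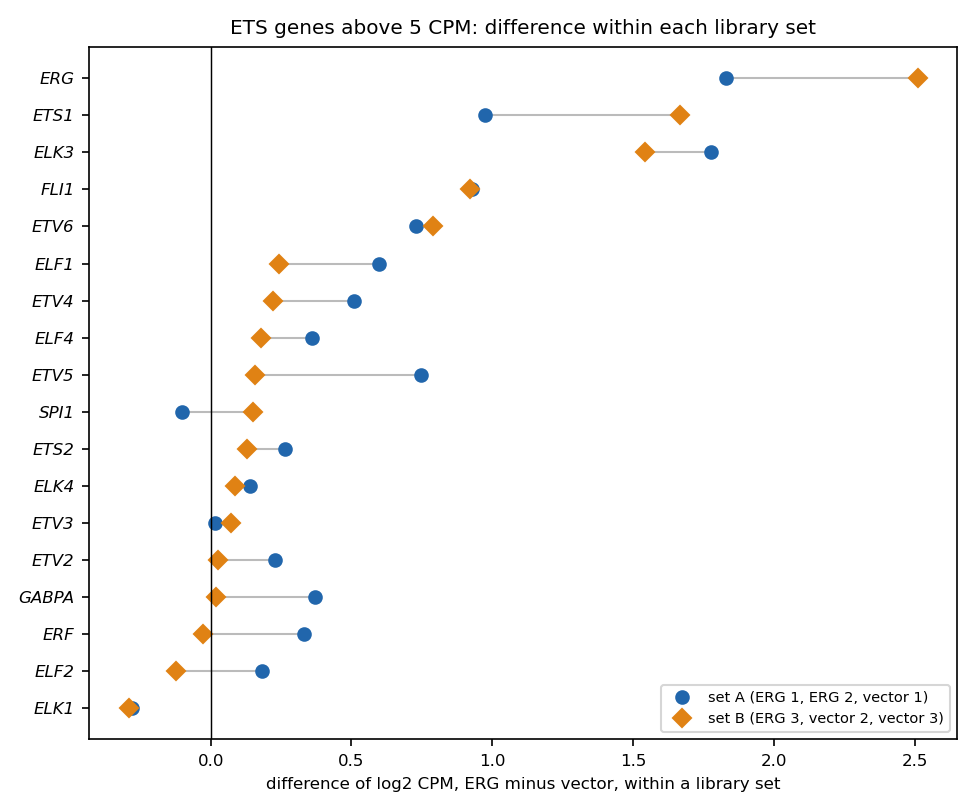
Difference of log2 CPM, ERG minus vector, within library set A (circles) and set B (diamonds) for ETS genes above 5 CPM. FLI1 and ETV6 have nearly the same value in both sets, ERG and ETS1 have larger values in set B, and SPI1 lies at -0.10 and 0.15.

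The genes that ETS factors work with were taken from lists of partners, regulators and known targets, again drawn up with earlier results of these data known. Of 8 partners in blood stem cells, which join ERG and FLI1 on shared enhancers, 1 rose and 1 fell. Over all genes 1.47% passed as higher and 0.732% as lower. GATA2 rose 2.15-fold (1177 ± 148 against 548 ± 107 CPM, SD, n = 3; edgeR adjusted p = 0.0416), and LMO2, the bridging protein of that complex, fell 1.92-fold (148 ± 10.1 against 284 ± 30.8 CPM, edgeR adjusted p = 0.0236). The other 6, RUNX1, TAL1, LYL1, LDB1, CBFB and MYB, did not pass, and the list's median log2 value was 0.02. RUNX1 was at 376 ± 51.0 against 252 ± 38.5 CPM (edgeR adjusted p = 0.161), and TAL1 at 352 ± 1.97 against 351 ± 24.9 CPM. These 6 were chosen for naming once their values were known.

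Of 5 partners of GABP and of the ternary complex factors, none passed (0 in edgeR, with 1 at an unadjusted p under 0.05, 1 by DESeq2 and 0 by limma-voom). SRF was at 119 ± 21.4 against 121 ± 22.5 CPM and its coactivator MRTFA at 133 ± 13.6 against 116 ± 11.1 CPM (SD, n = 3). GABPB1, the partner subunit of GABPA, chosen for naming once its value was known, stood at 101 ± 6.07 against 68.7 ± 2.31 CPM (log2 0.55, edgeR adjusted p = 0.0641). Of 12 ubiquitin ligase and protease genes that act on ETS proteins, 1 rose, against 1.47% of all genes. It was TRIB1, a scaffold that brings targets to the ligase COP1 (14.9 ± 3.02 against 6.34 ± 0.605 CPM, 2.35-fold, edgeR adjusted p = 0.0422), and limma-voom called 0 of the 12. SPOP, the ligase adaptor that binds ERG itself, likewise chosen for naming, stood at 91.2 ± 6.73 against 78.5 ± 7.50 CPM (log2 0.22, edgeR adjusted p = 0.467). Of 7 tested MAP kinase and feedback genes none passed (0 in edgeR, with 2 at an unadjusted p under 0.05, and 0 by DESeq2 and limma-voom). MAP2K2, a kinase of that cascade, was at 200.3 ± 2.60 against 270.2 ± 55.4 CPM.

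Of 8 tested megakaryocyte genes that FLI1 and ERG are known to activate, 5 rose and none fell, with a median log2 value of 2.60, and the background of higher calls was 1.47%. DESeq2 called 6 of the 8, against 7.08% of all genes in either direction, and limma-voom 2, against 1.89%. ITGB3, the beta chain of the platelet fibrinogen receptor, was at 570, 578 and 211 CPM with ERG and 43.2, 21.6 and 28.6 CPM with vector (14.6-fold). For ITGB3, ERG replicate 3 was well below the other 2 ERG libraries while its ERG level was not. PPBP and SELP, of platelet granules, rose from 4 and 5 counts summed over the vector libraries to 307 and 373 counts over the ERG libraries. Both are among the 5 calls, but they met the filter only through the ERG libraries and so could only come out as higher. Their log2 values, 5.88 and 5.87, also raise the list's median, and both are part of the 8 genes behind the DESeq2 and limma-voom counts. The other tested genes of the list had log2 values between 0.23 and 3.86. In ERG replicates 1, 2 and 3 PPBP was at 11.6, 9.05 and 1.83 CPM. SELP was at 12.7, 12.1 and 2.38 CPM. GP1BA, a subunit of the platelet receptor for von Willebrand factor, rose 2.34-fold and was chosen for naming once its value was known.

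Of 9 tested PU.1 targets 1 rose, the Fc receptor chain FCER1G (48.9 ± 8.52 against 17.0 ± 4.71 CPM, 2.88-fold, edgeR adjusted p = 0.0251), against 1.47% of all genes, and 5 of the 9 log2 values were positive (median 0.30). With the set term 3 passed as higher and 3 as lower, against 7.20% and 5.96% of all genes. LYZ, the lysozyme of monocytes, stood at 78.2 ± 11.5 against 137 ± 56.7 CPM without reaching the threshold (edgeR adjusted p = 0.227), and a fit that includes the library set called it lower (-0.97 on the log2 scale, edgeR adjusted p = 0.00189). CSF1R was below the filter. Both were chosen for naming once their values were known. Of 7 tested targets of ELK factors and SRF none passed (0 in edgeR, with 1 at an unadjusted p under 0.05, 1 by DESeq2 and 0 by limma-voom). IER2 was at 208 ± 11.6 against 135 ± 7.45 CPM (log2 0.63, edgeR adjusted p = 0.0504) and MCL1, a survival gene, at 230.4 ± 26.9 against 215 ± 25.3 CPM. Of 8 mitochondrial genes that GABP activates none passed (0 in edgeR, with 0 at an unadjusted p under 0.05, and 0 by DESeq2 and limma-voom), and 7 of the 8 log2 values were negative (median -0.15). COX4I1 was at 251 ± 27.2 against 295 ± 5.04 CPM and ATP5F1B at 883 ± 174 against 1032 ± 126 CPM.

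Of 7 erythroid genes that FLI1 or SPI1 are known to oppose, 4 fell and none rose, with a median log2 value of -1.30, where 0.732% of all genes passed as lower. EPOR, the erythropoietin receptor, fell 2.47-fold, and KLF1, the activator of globin genes, 1.97-fold. HBG2 and HBG1, near-identical fetal globin genes whose reads cannot be split with certainty, fell 4.50-fold and 3.99-fold. GATA1, chosen for naming in the same way, stood at 184 ± 17.6 against 223 ± 52.6 CPM (edgeR adjusted p = 0.518). With the set term all 7 passed as lower, against 5.96% of all genes, GATA1 among them (log2 -0.39, edgeR adjusted p = 0.0246).

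**Figure D5:**
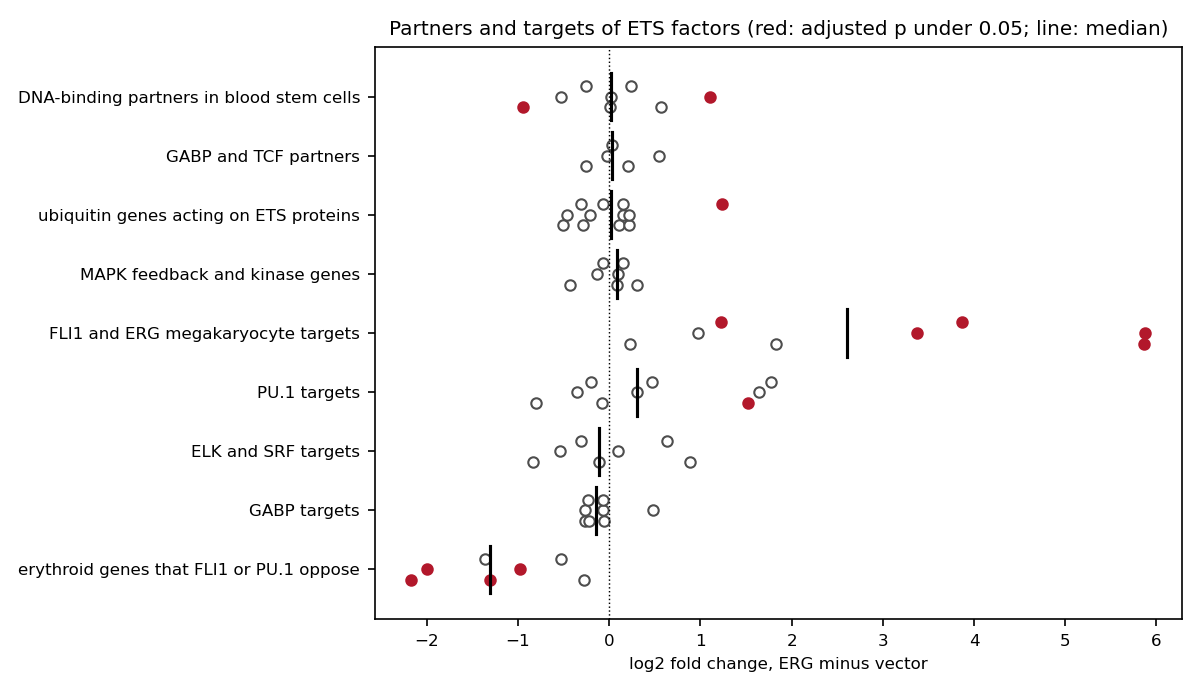
Log2 fold change of each tested gene in 9 lists of ETS partners and targets, red where the edgeR adjusted p was under 0.05, with a line at each list's median. The megakaryocyte targets (median 2.60) lie to the right of 0 and the erythroid genes (median -1.30) to its left, while the GABP targets lie close to 0 (median -0.15). The median of 2.60 includes PPBP and SELP, whose direction was fixed by the filter.

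Genes whose level followed that of ERG or FLI1 most closely were found by Pearson's r of log2 CPM over the 6 libraries, among 10014 named protein-coding genes with a mean of at least 5 CPM. For ERG they were SLC45A3, a membrane transporter (r = 0.998), MAST4, a kinase (0.997), IL1RL1, the interleukin-33 receptor (0.997), PRR5L (0.996) and GFI1, a transcriptional repressor of blood cells (0.996). GFI1 was at 51.8 ± 2.95 CPM with ERG and 21.2 ± 4.18 CPM with vector, and IL1RL1 at 31.3 ± 1.60 against 3.64 ± 1.16 CPM (SD, n = 3). For FLI1 they were PELI1, SLC10A7, PPP1R18, SAMD14 and STAB1 (r = 0.998, 0.997, 0.997, 0.997 and 0.997). STAB1 was at 107 ± 39.1 CPM with ERG and 19.0 ± 10.4 CPM with vector. ERG and FLI1 themselves had an r of 0.934. The 6 points fall into 2 groups and share their libraries, so these values describe likeness and carry no test.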

How the data were processed

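Messenger RNA of 6 F36P libraries had been captured on poly-T beads, fragmented and primed with random hexamers, per the labels' protocols. The authors deposited whole-number read counts per gene, although the table's name speaks of CPM, and the column totals differ between libraries. The submitters' processing notes name hg38 and edgeR 3.32.1. The aligner, the counter, its use of strand and the annotation are not given in the sources used here. Columns named as controls were read as vector samples, since the labels hold no further group, and 0 columns were left unused.

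A gene was tested where 3 or more libraries had 1 CPM or more (14203 genes, with 618 left out) by edgeR 4.0.16 (R 4.3.3), with TMM and the two-sided quasi-likelihood test, adjusted over all tested genes by Benjamini and Hochberg at 0.05. The SE is the log2 fold change divided by the square root of F, and intervals are at 95% and unadjusted. Alternatives were RLE and upper quartile scaling, DESeq2 1.42.0, limma-voom (limma 3.58.1), no filter, a replicate block, a term for the library set, ERG replicates 1 and 2 summed, and each library left out with the same genes. Differences within sets use log2 CPM with a prior count of 2. The edgeR script was run on simulated data with independent libraries, the same dispersion setting for all genes and no library sets. That run differs from the real libraries in these points and does not bear on how firm the calls are. The library sets were defined from correlations between libraries, after the data were seen. Exon and coding lengths are from GENCODE release 29, by gene name. The 10 genes and all lists were chosen with earlier results of these data known. Named are the 10 factors, the tested family genes, from each list up to 4 called genes with the largest change (where none was called, the 2 of highest mean CPM), and the 5 genes most like ERG and FLI1. Some genes that this rule names are not reported here.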

Additional observations from a re-analysis of the deposited data

How the results depend on the processing

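The count of 313 genes called became 1006 with DESeq2, 905 with the replicate block, 1869 with the set term and 0 with ERG replicates 1 and 2 summed (1277 at an unadjusted p under 0.05), and 0 to 441 with a library left out. The 4 calls among the 10 factors became 0 with the sum (4 unadjusted) and 0 to 4 with a library left out, and 3 with upper quartile scaling, and stayed 4 in the other fits. The 0 calls among other family genes became 1 with DESeq2, with the replicate block and with the set term, and 0 to 1 with a library left out. The 13 calls in the partner and target lists became 20, 29 and 0 with DESeq2, the set term and the sum, and 0 to 13 with a library left out. With ERG replicates 1 and 2 summed, ERG, FLI1, ETV6 and ELK3 had log2 values of 2.23, 0.99, 0.81 and 1.58 and missed the threshold (edgeR adjusted p = 0.0738, 0.170, 0.220 and 0.115). ETV6 also missed with upper quartile scaling (0.89). With a library left out ERG ranged from 2.01 to 2.46, FLI1 from 0.95 to 1.20, ETV6 from 0.75 to 0.97 and ELK3 from 1.41 to 1.75. Within a set, ERG (1.83, set A), ELF1 (0.60, set A), ELF2 (-0.12, set B), ELF4 (0.18, set B) and GABPA (0.020, set B) moved by more than the spread between replicates. The sign turned for genes near 0. ERF was at -8.8e-04 with RLE scaling and with DESeq2 and between -0.15 and 0.11 with a library left out, and ETV3 between -0.041 and 0.11. SRF was at 0.0082 with upper quartile scaling, 0.13 with the set term, 0.045 with the sum and between -0.18 and 0.068 with a library left out. The cause was not tested. Whether the replicate numbers pair the libraries cannot be told from 3 libraries per group. Deviations from the group means correlated at 0.628, -0.285 and 0.589 for numbers 1, 2 and 3. The values for numbers 1 and 3 were the highest of any ERG and vector pair, with ERG replicate 2 and vector replicate 1 next at 0.588. Vector replicate 2 correlated best with ERG replicate 3 (0.352). Scaling moved the median of all genes between -0.02 and 0.03. The difference in the share of ERG was 2.51 percentage points by exon length and 11.0 with ERG alone at its coding length. Depth limits SPIB, FEV and SPDEF.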
